A study of Mus musculus with 72 samples.

Results

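Genes of the basement membrane and the surrounding extracellular matrix were followed from the nucleus to the cytosol and to cellular membranes in mouse embryonic stem cells. The 10 genes were taken by symbol from the 51826 genes in the count files: Col4a1, Col4a2, Lama1, Lama5, Lamb1, Lamc1, Nid1, Hspg2, Fn1 and Sparc. The cells were E14TG2a, an unmodified mouse embryonic stem cell line, grown on gelatin in 2i medium with LIF. They were labeled with 4-thiouridine (4sU), a uridine analog that enters new RNA and, after alkylation with iodoacetamide, is read as a T-to-C (T2C) change in sequencing. RNA of whole cells, of the cytosol, of the membrane fraction and of the nucleus was taken from the same cultures by stepwise detergent extraction in buffers with cycloheximide. Poly(A)-selected libraries were made from each of the 4 fractions. Labeling lasted 15, 20 or 30 min in replicates 1 and 2, 20, 40 or 60 min in replicates 3 and 4, and 60 or 120 min in replicates 5 and 6, which gives 16 cultures and 64 libraries. According to the labels the 4sU dose was 500 µM up to 40 min and 100 µM at 60 and 120 min. The methods give 500 µM also for the 60 min cultures of replicates 3 and 4. By the labels, then, each contrast of 60 and 120 min with shorter times also changes the dose, and time and dose cannot be told apart in it. By the methods, contrasts of 60 min with shorter times within replicates 3 and 4 keep 1 dose. The conversion rate is the estimated T2C rate in new RNA of a library. At 60 min it was 5.83% to 8.29% in replicates 3 and 4 and 2.38% to 3.99% in replicates 5 and 6. All cultures were labeled, so no unlabeled library serves as a control.

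A basement membrane is a thin sheet of matrix built from networks of laminin and type IV collagen, which nidogen and perlecan connect and which cells bind through integrins and dystroglycan. Its proteins are secreted: their mRNAs are translated on ribosomes at the endoplasmic reticulum (ER), and a signal peptide at the start of the nascent protein directs the ribosome there. Embryonic stem cells and the early embryo make laminin and type IV collagen, and the early endoderm makes large amounts of both.

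Col4a1 and Col4a2 encode the alpha chains of the common type IV collagen, whose trimers form the collagen network. Both lie head to head on chromosome 8 (GRCm38), Col4a1 at chr8:11198423-11312826 on the minus strand and Col4a2 at chr8:11312805-11449287 on the plus strand, so their first exons overlap by 22 bases. The libraries kept the strand, but the strand setting of the read counter is not given in the sources used here, and reads in this overlap are uncertain. Lama1 (chr17:67697259-67822647, plus) and Lama5 (chr2:180176373-180225859, minus) encode alternative alpha chains of laminin. Lamb1 (chr12:31265234-31329644, plus) and Lamc1 (chr1:153218922-153332786, minus) encode the beta and gamma chains that pair with either of them. Nid1 (chr13:13437551-13512269, plus) encodes nidogen, which bridges laminin and type IV collagen. Hspg2 (chr4:137468769-137570630, plus) encodes perlecan, a large heparan sulfate proteoglycan. Fn1 (chr1:71585520-71653200, minus) encodes fibronectin, which integrins bind and assemble into fibrils. Sparc (chr11:55394500-55423183, minus) encodes a small collagen-binding glycoprotein and is the shortest of these genes, with 28.7 kb against 136 kb for Col4a2.

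The first 40 codons of 4 members are shown because the signal peptide lies there. Sparc and Lama5 marked the ends of the fraction and labeling patterns, Col4a1 had the densest run of nonpolar codons, and Fn1 had the highest whole-cell median per kb. Capitals mark codons with T at the second position, which encode the nonpolar residues phenylalanine, leucine, isoleucine, methionine and valine. The sequences are coding sequence of the principal transcript, in GRCm38, on the coding strand.
Sparc, chr11:55406595-55409984, minus strand, joined from 3 coding exons: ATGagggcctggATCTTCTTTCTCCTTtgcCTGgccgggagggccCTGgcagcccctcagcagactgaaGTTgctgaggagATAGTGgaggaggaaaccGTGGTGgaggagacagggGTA
Col4a1, chr8:11267621-11312599, minus strand, joined from 2 coding exons: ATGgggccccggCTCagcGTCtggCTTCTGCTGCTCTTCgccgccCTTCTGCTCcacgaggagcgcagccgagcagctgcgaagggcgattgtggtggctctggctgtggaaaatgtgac
Fn1, chr1:71652863-71652982, minus strand, 1 coding exon: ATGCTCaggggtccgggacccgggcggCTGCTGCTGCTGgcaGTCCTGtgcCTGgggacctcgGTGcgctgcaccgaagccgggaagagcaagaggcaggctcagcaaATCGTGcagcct
Lama5, chr2:180225683-180225802, minus strand, 1 coding exon: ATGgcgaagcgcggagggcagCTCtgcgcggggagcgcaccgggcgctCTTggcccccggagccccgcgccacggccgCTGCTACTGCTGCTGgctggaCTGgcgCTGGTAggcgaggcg

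Over the 10 members, 11 to 16 of the first 40 codons had T in the middle. The densest window of 10 codons held 8 of them in Col4a1, 7 in Lama1, Lama5, Lamb1, Fn1, Nid1 and Hspg2, 6 in Col4a2 and Sparc, and 5 in Lamc1. Thus 7 of the 10 members reached 7 in such a window, as did 22.6% of 21568 coding genes, whose median was 5. In Lama5 the dense run began later, after a stretch of mostly lower-case codons, and in Sparc it began within the first 5 codons.

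The libraries held 15382522 to 52975732 reads counted on genes (median 21362457). Relative counting error is largest at low counts, and outside the cytosol the lowest level of a member was 4.87 CPM, for Col4a2 in a nuclear library. The cells carried the markers of their label: the 8 stem cell markers summed to 4624 to 7648 CPM in whole cells. CPM are counts scaled to a common library total, after each total was adjusted by its TMM factor, the normalization factor of edgeR. CPM ranges over libraries and CPM ratios between fractions therefore depend on TMM scaling. The 12 markers of primitive and parietal endoderm summed to 5.88 to 10.7 CPM, with Afp at a median of 0 and Gata6 at a median of 0.483 CPM. The 10 fibroblast markers summed to 11.2 to 28.9 CPM in whole cells, with Lum at 0 in every library and Col1a1 at a median of 0.517 CPM. Of the fraction markers, the 5 ER-translated mRNAs summed to a median of 9404 CPM in the membrane fraction and 442 in the cytosol. The 3 nuclear RNAs summed to a median of 1147 CPM in the nucleus and 246 in the cytosol. The whole-cell libraries labelled 60 and 120 min of replicate 6 went against their labels: in 95.6% of 14744 genes, and in 10 of the 10 members, the share of new RNA was higher in the library labelled 60 min than in that labelled 120 min. The corresponding percentage was 5.11% to 8.73% in the 3 fractions of replicates 5 and 6 and 7.29% in whole cells of replicate 5.

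In whole cells the 10 mRNAs covered a wide range. Levels between genes are compared as CPM per kb of exon, where CPM are relative to the TMM-adjusted reads of a library and not to a cell. Exon length is that of all annotated exons of a gene merged over its transcripts, whether or not each is expressed here. Orders and ratios between genes therefore also depend on the annotation. Fn1 had the highest median, 93.3 CPM per kb, followed by Sparc at 77.0 and Lamc1 at 69.0. Hspg2 (24.3), Nid1 (23.1), Lama5 (11.1) and Lama1 (8.43) were intermediate. Lamb1 (4.44), Col4a1 (3.86) and Col4a2 (2.10) were the lowest. The ranges over the 16 whole-cell libraries overlapped for each neighbouring pair in this order. The order also differed between replicate pairs: in replicates 5 and 6 Sparc, at 68.8 to 80.2 CPM per kb, was above Fn1, with a highest value of 54.99, and the median of Hspg2 (7.23) was below those of Nid1 (18.0) and Lama5 (9.96). Fewer cells of a type and less RNA per cell cannot be told apart in such bulk samples. The mRNAs of chains that join in 1 protein were not present at equal levels.

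The gamma chain mRNA was above the beta chain mRNA in all 16 whole-cell libraries, with a Lamc1 to Lamb1 ratio per kb of 8.11 to 19.2 (median 13.7). The collagen pair was closer, with a Col4a1 to Col4a2 ratio of 1.60 to 3.09 (median 2.51). Lama5 was above Lama1 by a ratio of 1.16 to 2.59 (median 2.20). That ratio was 2.37 to 2.59 in replicates 1 and 2, 1.16 to 1.53 in replicates 3 and 4 and 2.16 to 2.29 in replicates 5 and 6, so the 3 ranges did not overlap. Lamc1 to Nid1 was the narrowest of the ratios, at 2.64 to 3.39 (median 3.05).

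The first comparison asked where in the cell these mRNAs were found. All 10 members were higher in CPM in the membrane fraction than in the cytosol. Sparc ranged from 13.5 to 26.8 CPM in the cytosol (median 23.0) and from 521 to 1085 CPM in the membrane fraction (median 640). Lamc1 ranged from 10.8 to 80.4 CPM in the cytosol (median 40.4) and from 288 to 1692 in the membrane fraction (median 925). Within 1 culture the ratio was 23.7 to 44.1 for Sparc and 16.03 to 46.8 for Lamc1.

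Except for Lama5, the ranges of the remaining members did not overlap either, though those of Fn1 and Hspg2 came close. Col4a1 ranged from 0.489 to 2.80 CPM in the cytosol and from 16.5 to 65.1 in the membrane fraction, and Lamb1 from 0.880 to 6.58 and from 32.6 to 142. Nid1 ranged from 5.12 to 26.9 and from 95.3 to 478 CPM, and Lama1 from 3.61 to 19.9 and from 52.2 to 161. Fn1 ranged from 44.1 to 314 CPM in the cytosol and from 403 to 2173 in the membrane fraction, and Hspg2 from 7.43 to 73.4 and from 95.5 to 417. Col4a2 was at the limit of detection in the cytosol, with 0.0539 to 1.33 CPM against 6.87 to 24.1. In 9 of the 10 members the 16 cytosolic and 16 membrane libraries did not overlap, as was the case, with the membrane fraction above, in 14.4% of the 16093 genes tested.

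Lama5 lay at the other end. It ranged from 6.06 to 90.1 CPM in the cytosol (median 39.0) and from 39.1 to 216 CPM in the membrane fraction (median 157), so the fractions overlapped. The overlap came from the replicate pairs: cytosolic Lama5 was 62.0 to 90.1 CPM in replicates 1 and 2, 6.06 to 15.6 in replicates 3 and 4 and 30.3 to 46.1 in replicates 5 and 6. Within a culture its membrane to cytosol ratio was 2.12 to 10.1, the lowest of the 10 members in 16 of 16 cultures. The highest ratio belonged to Sparc in 9 cultures, to Col4a1 in 5, and to Col4a2 and Lamb1 in 1 each. For every member the ratio was above 1 in 16 of 16 cultures.

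In edgeR's quasi-likelihood test over 16093 genes, where a call needed an adjusted p below 0.05 and a log2 fold change beyond 0.5 in either direction, 10 of 10 members were higher in the membrane fraction. Of all genes 36.9% were called and 24.1% were called higher. The median log2 fold change of the members was 4.23, or 18.7-fold, against -0.16 over all genes. Sparc changed most, with a log2 fold change of 5.07 ± 0.13 (SE, adjusted p = 6e-44). Col4a1 (4.68), Lamc1 (4.58), Lamb1 (4.45), Nid1 (4.35) and Col4a2 (4.11) followed, all above 17-fold. Lama1 (3.19), Fn1 (3.11) and Hspg2 (2.87) were lower, and Lama5 was lowest at 1.63 ± 0.31 (adjusted p = 5.5e-06). The fit had no term for replicate, so it treated the libraries of a replicate as independent. Its SE and p-values do not measure the spread between replicate pairs. All 10 members were called higher within each replicate pair, with medians of 4.44, 4.40 and 3.90, beside 26.4%, 26.1% and 21.4% of genes. Without TMM scaling the median of all genes moved to -0.47 and the share of calls that were higher fell to 31.8% from 65.2%, while 10 of 10 members were still called higher.

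**Figure D1:**
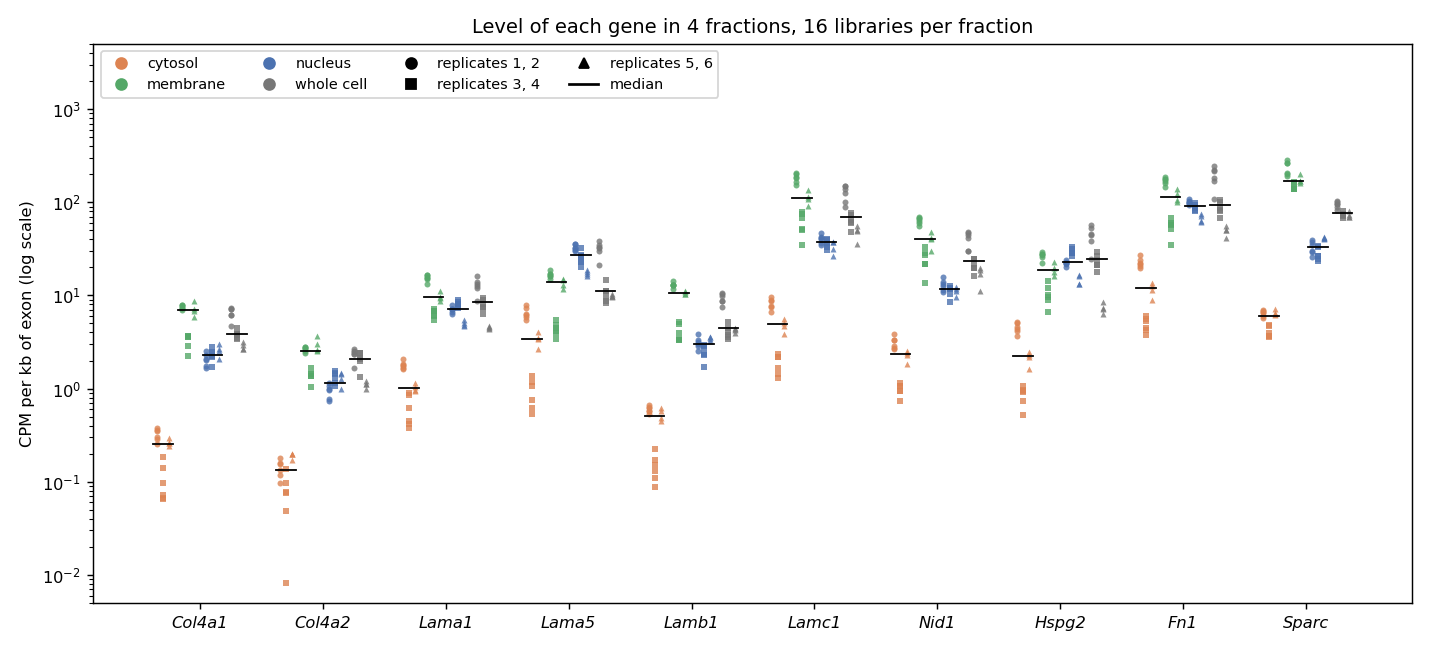
Level of each gene in CPM per kb of exon (log axis) in the cytosol, membrane fraction, nucleus and whole cells; each point is 1 library, the shape gives the replicate pair and the black line the median of 16 libraries. The membrane points sit above the cytosol points of the same replicate pair for each gene, Lama5 is the gene whose nuclear points sit above its membrane points in every pair, and the squares of replicates 3 and 4 hold the lowest cytosol values.

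The nucleus, too, was higher than the cytosol for 10 of 10 members (63.7% of genes called, 42.5% higher). Here the members lay close together, with log2 fold changes of 2.50 for Nid1 to 3.32 for Col4a1 and a median of 2.84 against 0.29 over all genes. This comparison shares the cytosolic libraries with the previous one. The nuclear RNAs used as a marker list summed to 74.2 to 146 CPM in the cytosol of replicates 3 and 4 and to 198 to 343 CPM in that of the other replicates. The lowest cytosolic level of each of the 10 members fell in replicates 3 and 4, and the part of this in the result was not tested. Within the pairs the median log2 fold change of the members was 2.04, 4.15 and 2.53.

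Between the nucleus and the membrane fraction the members divided. Lama5 was higher in the nucleus: it ranged from 186 to 408 CPM there (median 306), and the ratio to the membrane fraction of the same culture was above 1 in 16 of 16 cultures (1.15 to 7.73). Sparc ranged from 88.5 to 161 CPM in the nucleus (median 127) and was below its membrane level in 16 of 16 cultures. Nid1, Lamb1 and Col4a1 were also below 1 in every culture, Lamc1 in all but 1. For Fn1, Hspg2 and Lama1 the nucleus was higher in 6 cultures and lower in 10, and the 6 were those of replicates 3 and 4.

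Of the 10 members, 7 were called lower and 1 higher in the nucleus than in the membrane fraction (60.2% of genes called, 31.5% higher and 28.7% lower). Lama5 had a log2 fold change of 1.21 ± 0.30 (adjusted p = 0.00032), from the same fit without a term for replicate. Sparc fell by 2.50, Nid1 by 1.85, Lamc1 by 1.69, Lamb1 by 1.61, Col4a1 by 1.36, Col4a2 by 0.93 and Lama1 by 0.61 on the log2 scale. Fn1 (-0.38, adjusted p = 0.18) and Hspg2 (0.31, adjusted p = 0.32) were not called. With the culture as a replicate block 7 members were called, since Lama1 at -0.49 then missed the fold limit. Without TMM scaling the median of all genes moved to 0.39 from 0.05. The share of calls that were higher rose to 70.5% from 52.3%. The members then ranged from -2.14 to 1.59 instead of -2.50 to 1.21, and 8 were called, which need not be the same 8.

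The values of this comparison varied with the replicate pair. Lama5 had log2 fold changes of 0.55, 2.54 and 0.32 in replicates 1 and 2, 3 and 4, and 5 and 6, and 0.64 (adjusted p = 0.063) without replicate 4. Fn1 had -1.18, 0.69 and -0.83 in the same order, and Hspg2 had -0.68, 1.53 and -0.41. Sparc was lower in each pair, by 3.27, 2.39 and 2.11. In the membrane fraction the 10 members summed to 1569 to 2557 CPM in replicates 3 and 4, against 4890 to 6300 in replicates 1 and 2 and 3577 to 4511 in replicates 5 and 6. The 5 ER-translated mRNAs had the same order, with sums of 5935 to 7036, 12601 to 16391 and 9085 to 9606 CPM, and their part in the result was not tested. The difference between pairs was not tested either.

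Genes that act with the members gave the following counts, to be read against the 24.1% of all genes called higher. Of 30 other matrix genes 19 could be tested, and 18 were higher in the membrane fraction than in the cytosol (median log2 fold change 3.33), led by Fbln1 (4.75), Col18a1 (4.72), Nid2 (4.35), Col5a1 (4.27) and Lamb3 (4.10). Of 19 matrix receptors 18 were tested and 18 were higher (median 3.74). They include Dag1 (4.72), which encodes dystroglycan, the integrin subunits Itgb1 (4.47) and Itga6 (4.16), and the laminin receptor Bcam (4.99). Of 21 genes for collagen folding and matrix assembly 19 were tested and 18 were higher (median 3.74), among them Crtap (4.75) and P3h1 (4.39) of the prolyl 3-hydroxylation complex and Serpinh1 (4.57), the collagen chaperone. Of 13 proteases and inhibitors 11 were tested and 11 were higher (median 3.24), including Mmp2 (4.34) and Timp2 (4.03). The 5 ER-translated mRNAs had a median of 4.69 with 5 called higher, and of 6 cytosol-translated mRNAs 0 were higher and 1 was lower.

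In whole cells, the level of the members did not depend detectably on labeling time. From 20 to 60 min in replicates 3 and 4 and from 60 to 120 min in replicates 5 and 6, edgeR called 0 of 16701 genes (0%), with 780 and 113 genes at an unadjusted p under 0.05 and 0 called by DESeq2. The largest absolute log2 fold change of a member was 0.24 and 0.30. The second of these uses the replicate 6 libraries that went against their labels. Without replicate 6, with 1 library per arm assumed to vary like the other groups, it also called 0. By the labels the first also compares 100 with 500 µM 4sU, whereas the methods give 500 µM for both times.

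The replicate pairs did differ at 20 min, the time that both share. In replicates 3 and 4, 6 members were lower than in replicates 1 and 2 (22.1% of genes called, 11.9% lower). Lama5 fell by 1.20 on the log2 scale (adjusted p = 0.0014), Lamb1 by 0.91, Fn1 by 0.79, and Nid1, Lamc1 and Col4a1 by 0.67 each. Hspg2 (-0.62), Lama1 (-0.36), Sparc (-0.34) and Col4a2 (-0.03) were not called. The 5 ER-translated mRNAs were lower in 5 of 5 cases and 5 of the 8 stem cell markers were higher. The call rests on few libraries: 8 members were called without replicate 1, where Lama1 and Hspg2 joined, 2 without replicate 2, 2 without replicate 4 and 0 without replicate 3. Each of these fits leaves 1 library in an arm, assumed to vary like the other groups.

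The second set of comparisons used the share of new to total mRNA, that is the T2C count over the T count of a gene, divided by the conversion rate of the library. A share of 1 means that all molecules were made during labeling. No background was subtracted, and a share can exceed 1 where the T2C rate of a gene is above the conversion rate of its library.

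Fn1 shows how the share moved through the cell. In the nucleus it was 0.0232 and 0.0180 at 15 min in replicates 1 and 2, 0.0502 and 0.0434 at 20 min in replicates 3 and 4, 0.123 and 0.101 at 60 min in replicates 5 and 6, and 0.243 and 0.191 at 120 min. In the cytosol it was 0.205 and 0.201 at 60 min in replicates 5 and 6, and 0.508 and 0.434 at 120 min. The membrane fraction of the same cultures was at 0.0302 and 0.0268, then at 0.0999 and 0.0866. In replicates 5 and 6 the small cytosolic pool of Fn1 held a larger share of new mRNA than the nucleus and the membrane fraction of the same culture. In replicates 3 and 4 the cytosol at 60 min, at 0.0946 and 0.0812, was below the nucleus, at 0.113 and 0.0922.

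Lama5 kept another order. In replicates 5 and 6 its nuclear share was 0.184 and 0.115 at 60 min and 0.449 and 0.402 at 120 min. Its cytosolic share was 0.0768 and 0.0736 at 60 min and 0.448 and 0.369 at 120 min, and its membrane share at 120 min was 0.126 and 0.115. The cytosolic share of Lama5 was below its nuclear share in 6 of 6 cultures labeled for 60 or 120 min, whereas for each of the other 9 members the cytosol was above the nucleus in 4 or 5 of those 6.

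Sparc was the slowest to fill with new mRNA in the nucleus. Its nuclear share was 0.0214 and 0.0251 at 20 min in replicates 1 and 2 and only 0.115 and 0.125 at 120 min. The cytosol held 0.204 and 0.160 at 60 min in replicates 5 and 6 and 0.215 and 0.167 at 120 min, and the membrane fraction 0.105 and 0.0940 at 120 min. Already at 15 to 40 min the cytosolic share of Sparc exceeded the nuclear share in 8 of 10 cultures, which was the case in 0 to 4 of 10 for the other members.

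The other members lay between these. At 120 min the nuclear share was 0.432 and 0.379 for Lama1, 0.352 and 0.281 for Hspg2, 0.235 and 0.230 for Lamb1, 0.230 and 0.192 for Lamc1, 0.230 and 0.170 for Col4a2, 0.223 and 0.174 for Nid1, and 0.1999 and 0.160 for Col4a1. The median of 11646 genes was 0.431 in the nucleus, 0.370 in the cytosol and 0.304 in the membrane fraction at that time. All 10 members were below the all-gene median in the membrane fraction, where their highest value was 0.241 for Lama1.

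**Figure D2:**
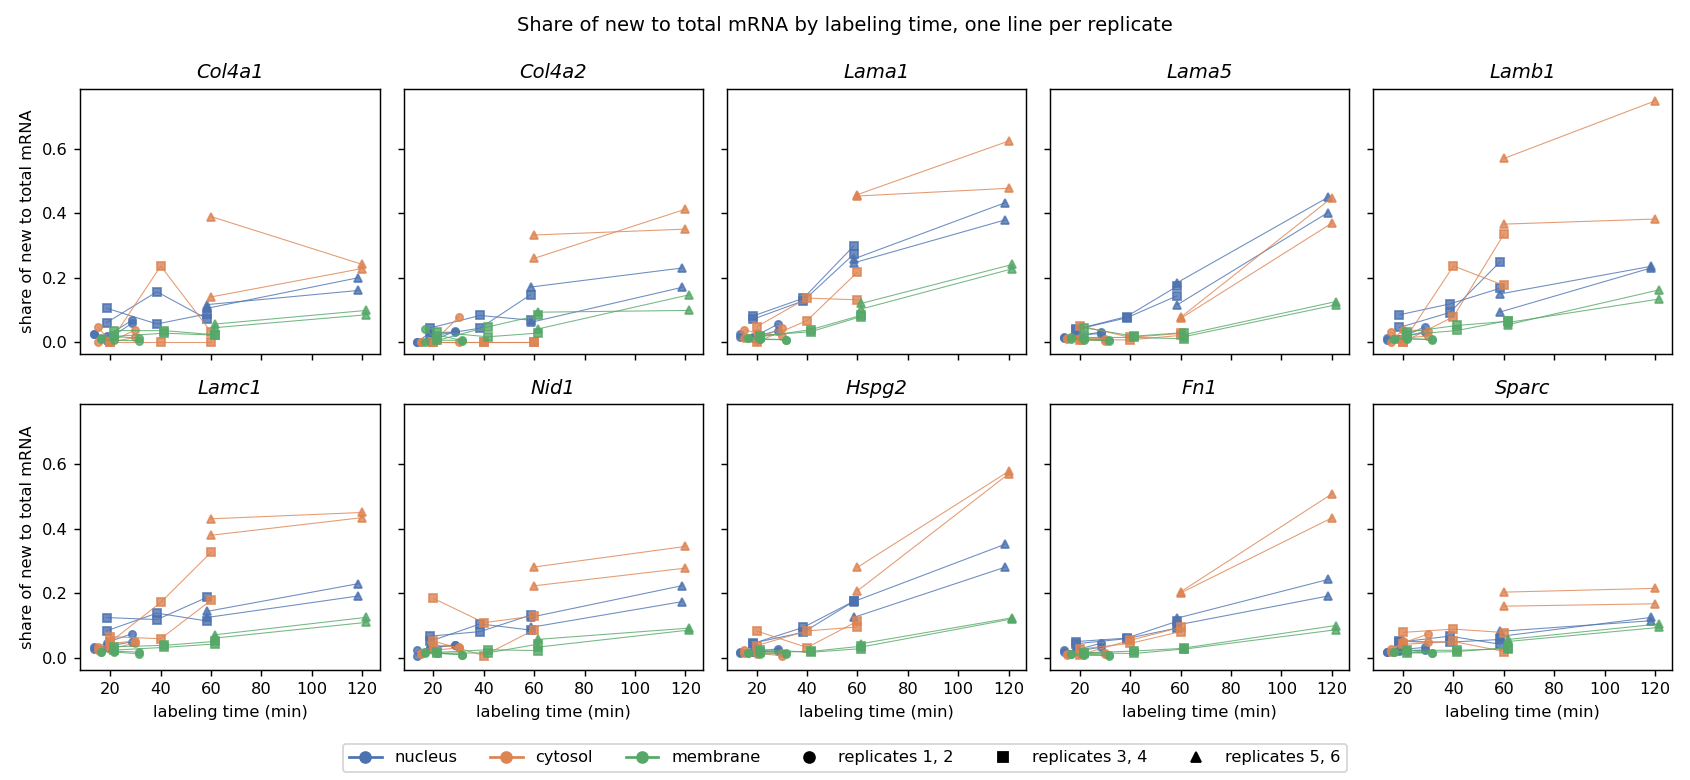
Share of new to total mRNA (vertical axis) against labeling time in min for the 10 genes in the nucleus, cytosol and membrane fraction; each line is 1 replicate and the shape gives the replicate pair. The membrane lines stay lowest at 120 min for each gene, and the cytosolic triangles at 120 min lie above the nuclear ones for every gene except Lama5.

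Shares could be tested for 8 of the 10 members, whose T counts reached 400 in each library. Col4a1, with as few as 231 T counts in a cytosolic library, and Col4a2, with as few as 14, were left out. With labeling condition as a covariate, limma on log2(share + 0.01) over 11646 genes called 7 of the 8 lower in the membrane fraction than in the cytosol (13.8% of genes called, 9.95% lower). The median of the tested members was -0.996 against -0.01 over all genes. Lamc1 fell by 1.36 ± 0.17 (SE, adjusted p = 4.2e-08) on this scale, Nid1 by 1.23, Sparc by 1.02, Fn1 by 0.996, Hspg2 by 0.995, Lamb1 by 0.96 and Lama1 by 0.92. Lama5 had -0.38 (adjusted p = 0.28). Without replicate 5 or without replicate 6 the call of Lamb1 was lost (adjusted p = 0.12 and 0.082).

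The median of the members was -0.39, -0.92 and -1.91 within replicates 1 and 2, 3 and 4, and 5 and 6. The pairs differ in labeling time, but also at a time they share: at 60 min the cytosolic share of Fn1 was 0.0946 and 0.0812 in replicates 3 and 4 and 0.205 and 0.201 in replicates 5 and 6, with membrane shares of 0.0273 and 0.0294, then 0.0302 and 0.0268. The median cytosolic share of all genes at 60 min was 0.0948 and 0.195 in these pairs. By the methods the 60 min cultures of these pairs also differ in 4sU dose, whereas the labels give the same dose. The share is divided by the conversion rate, which differed too. At 60 min the cytosolic rate was 5.83% and 7.57% in replicates 3 and 4, then 2.38% and 2.58%. The part of dose and conversion rate in the difference between pairs was not tested. In replicates 1 and 2 only Sparc (-0.92) and Lamc1 (-0.77) of 10 tested members were called lower, beside 5.8% of genes. In replicates 3 and 4 Lamc1 (-1.42), Hspg2 (-1.23), Sparc (-0.97) and Fn1 (-0.86) of 8 were called lower, beside 4.31%. In replicates 5 and 6, where 10 members passed the T limit, 10 of 10 were lower, beside 15% of genes. There Fn1 had -2.34, Lamb1 -2.30, Hspg2 -2.26, Lamc1 -2.14, Nid1 -1.99, Lama5 -1.59 and Sparc -1.23.

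Between nucleus and cytosol most genes had the larger share in the nucleus, as 81.7% of the 11646 genes were called higher there and 83.2% were called in all. Of the 8 tested members only Lama5 was higher in the nucleus (0.99 ± 0.21, adjusted p = 4.5e-05) and Sparc was lower (-0.49 ± 0.14, adjusted p = 0.0016), beside 1.58% of genes called lower. The other 6 were not called, with values of -0.21 for Lamc1 to 0.24 for Lama1. The median of the tested members was -0.04 and that of all genes 0.88. This test shares the cytosolic libraries with the previous one.

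The sign was not the same in every pair, a difference that was not tested. In replicates 5 and 6, 8 of 10 members were lower in the nucleus than in the cytosol, beside 8.35% of genes, and 0 were higher, beside 24.5%. Lamb1 (-1.51) and Lamc1 (-1.28) were the lowest, followed by Col4a2 (-1.17), Fn1 (-0.95), Sparc (-0.90), Nid1 (-0.88), Hspg2 (-0.76) and Lama1 (-0.63). Col4a1 (-0.70, adjusted p = 0.076) and Lama5 (0.47, adjusted p = 0.092) were not called. In replicates 1 and 2 Fn1 (0.70) and Lama5 (0.65) were higher and Sparc (-0.64) lower, beside 53.3% of genes called higher and 1.24% lower. In replicates 3 and 4 Lama5 (1.67), Lama1 (0.99) and Fn1 (0.51) were higher, beside 81.6%. The cytosolic T counts of some members were low in those replicates, for instance 487 for Lamb1 in 1 library.

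**Figure D3:**
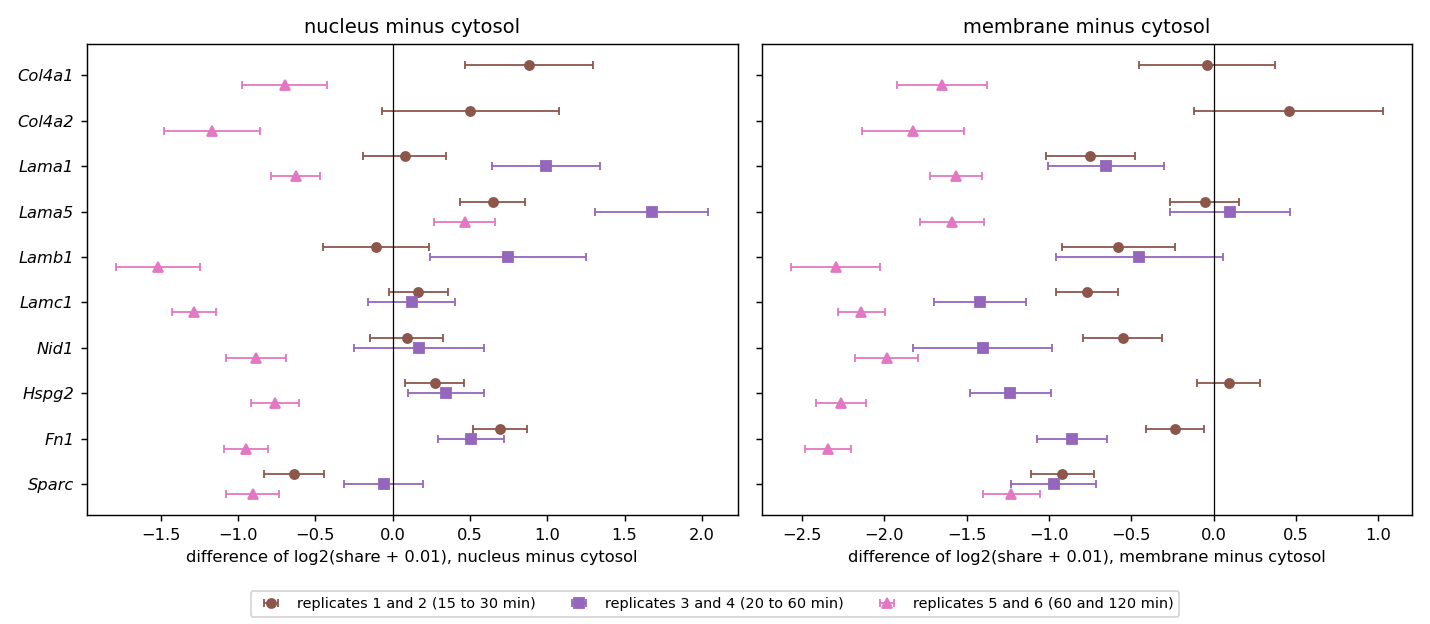
Difference of log2(share + 0.01) between nucleus and cytosol (left) and between membrane fraction and cytosol (right) for each gene, estimated within each replicate pair, with bars of 1 SE; Col4a1 and Col4a2 had too few T counts in replicates 3 and 4. In replicates 5 and 6 the nucleus lies below the cytosol for 9 genes with Lama5 at 0.47, and the membrane fraction lies below the cytosol for all 10.

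Between nucleus and membrane fraction 8 of 8 tested members had the higher share in the nucleus, as did most genes (88.1% called, 87.4% higher). Lama5 had the largest difference, 1.37, and Sparc the smallest, 0.53. In replicates 1 and 2 the count was 5 of 10 beside 59.7% of genes, in replicates 3 and 4 it was 8 of 8 beside 81%, and in replicates 5 and 6 it was 8 of 10 beside 47.8%.

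The related genes are read against the 9.95% of all genes called lower in the membrane fraction. Of 15 matrix receptors tested 12 had a lower share in the membrane fraction than in the cytosol, as did 10 of 14 assembly genes, 5 of 8 other matrix genes, 5 of 6 proteases and inhibitors and 5 of 5 ER-translated mRNAs. None of the 6 cytosol-translated mRNAs was called in that comparison (0 higher and 0 lower), and 6 of 6 had the higher share in the nucleus than in the cytosol. Between nucleus and cytosol 3 of 8 other matrix genes, 4 of 15 receptors, 5 of 14 assembly genes and 1 of 6 proteases and inhibitors were higher in the nucleus, and 3 receptors were lower, beside 81.7% of all genes higher and 1.58% lower.

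In whole cells of replicate 5 the share of Lama1 was 0.347 at 60 min and 0.401 at 120 min, that of Lama5 0.227 and 0.443, and that of Fn1 0.161 and 0.248. Sparc was at 0.0580 and 0.0999, the lowest member at 120 min, whereas at 60 min Col4a2 was lower, at 0.0425. In the libraries of replicate 6 labelled 60 and 120 min the values ran the other way, with 0.482 and 0.162 for Lama5, 0.250 and 0.115 for Fn1 and 0.0998 and 0.0497 for Sparc.

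Introns, which stand for unspliced RNA, held more new RNA than exons. In Sparc the nuclear intron share was 0.443 and 0.329 at 15 min and 0.931 and 0.885 at 20 min in replicates 1 and 2, while its exon share was at or below 0.0251. In Fn1 it was 0.0967 and 0.0907 at 15 min, 0.605 and 0.630 at 40 min in replicates 3 and 4, and 0.948 and 0.943 at 120 min. In Lama5 it was 0.132 and 0.116 at 15 min and 0.886 and 0.825 at 120 min. The introns of Sparc were thus mostly new within 20 min, and those of Fn1 and Lama5 needed longer.

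By limma over 10380 genes, the intron share exceeded the exon share in 9 of 9 tested members (98% of genes called, 97.8% higher). Col4a1 was not tested, since 1 nuclear library held 170 T counts in its introns; with a limit of 100 its difference was 3.66. Sparc had 4.04 ± 0.11 (adjusted p = 1.9e-22), about 16.4-fold, and Lama5 the smallest difference, 2.36 ± 0.14. Col4a2 (3.03), Lamb1 (3.00), Nid1 (2.99), Hspg2 (2.94), Lamc1 (2.60), Lama1 (2.49) and Fn1 (2.42) lay between them. The median of the members was 2.94 and that of all genes 1.83, and within the pairs the members had medians of 3.23, 2.73 and 2.47.

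Along the genes, exons near the 3′ end carried more new RNA than exons far from it at short labeling times. In the 10 nuclear libraries of 15 to 40 min, exons of Fn1 less than 5 kb from the 3′ end had a share of 0.0307 to 0.122 (median 0.0741), and exons more than 30 kb away 0.00944 to 0.0257 (median 0.0150). In Lama1 the near exons had 0.0298 to 0.228 (median 0.112) and the far exons 0.00344 to 0.0538 (median 0.0116). The far window was below the near window in 10 of 10 libraries for Fn1, Lama1, Lamb1, Lamc1 and Hspg2, in 9 for Col4a1 and Lama5 and in 8 for Nid1.

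Of the 10 members 8 could be tested in this way, and 8 of 8 were lower in the far exons, as were most genes (90.7% of 2691 called by limma, 90.2% lower). Col4a1 fell by 2.58, Lama1 by 2.11, Lamb1 by 2.06, Fn1 by 1.58, Lamc1 by 1.51, Nid1 by 1.04 and Hspg2 by 1.01 on the log2 scale. Lama5, whose far exons held few T counts, had -1.496. The median of the members was -1.55 and that of all genes -1.91. Sparc has no exon beyond 30 kb, and Col4a2 had too few T counts in its far exons. With a limit of 15 kb Sparc had 0.05 (adjusted p = 0.86), with median shares of 0.0315 near and 0.0316 far, and Col4a2 had -1.43. The far value of Sparc rests on its first exon, listed as a pair of nearly identical rows with pooled shares of 0.0770 and 0.0794 at 15 to 40 min, whereas its other exon beyond 15 kb had 0.0132. The exons of Sparc between 4.76 and 15.5 kb had 0.0108 to 0.0208, and the exon nearest the 3′ end had 0.0452.

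After longer labeling the windows of Fn1 and Lama1 came closer as a ratio. At 60 min the plain difference of their medians was larger than at 15 to 40 min. In Lama5 the medians were 0.0417 near and 0.00568 far at 15 to 40 min, 0.188 and 0.0427 at 60 min, and 0.429 and 0.344 at 120 min. At 60 min the median share of Fn1 was 0.144 near and 0.0675 far, and at 120 min 0.221 and 0.207. In Lama1 it was 0.335 and 0.145 at 60 min, and 0.424 and 0.344 at 120 min. At 120 min the far window of Hspg2 (0.382 against 0.311), Lamb1 (0.299 against 0.224) and Lamc1 (0.215 against 0.211) was at or above the near one in both libraries. Over single exons at 15 to 40 min Spearman's rho between distance and share was -0.80 in Lamb1, -0.69 in Lama1 and -0.64 in Lama5, but -0.31 in Fn1 and 0.10 in Sparc; exons of a gene share their libraries, and these values are descriptive.

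The gap on the log2 scale was also tested as a difference between 60 to 120 min and 15 to 40 min. It was smaller after long labeling in 4 of 8 members (36.4% of 2497 genes called, 36.1% in that direction). These were Col4a1 by 2.31, Lamb1 by 1.39, Lama1 by 1.24 and Fn1 by 0.92. Lamc1 had 0.96 (adjusted p = 0.0504). By the labels this contrast also sets 100 against 500 µM 4sU, whereas the methods give 500 µM for the 60 min libraries of replicates 3 and 4. With the replicate as a block, where only replicates 3 and 4 carry both classes of times, 0 genes were called by limma and 343 had an unadjusted p under 0.05, 1 member among them. Within replicates 3 and 4 it also called 0 genes, with 574 at an unadjusted p under 0.05, and the median of the 8 members was 0.93 there and 0.94 in the fit over all replicates.

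**Figure D4:**
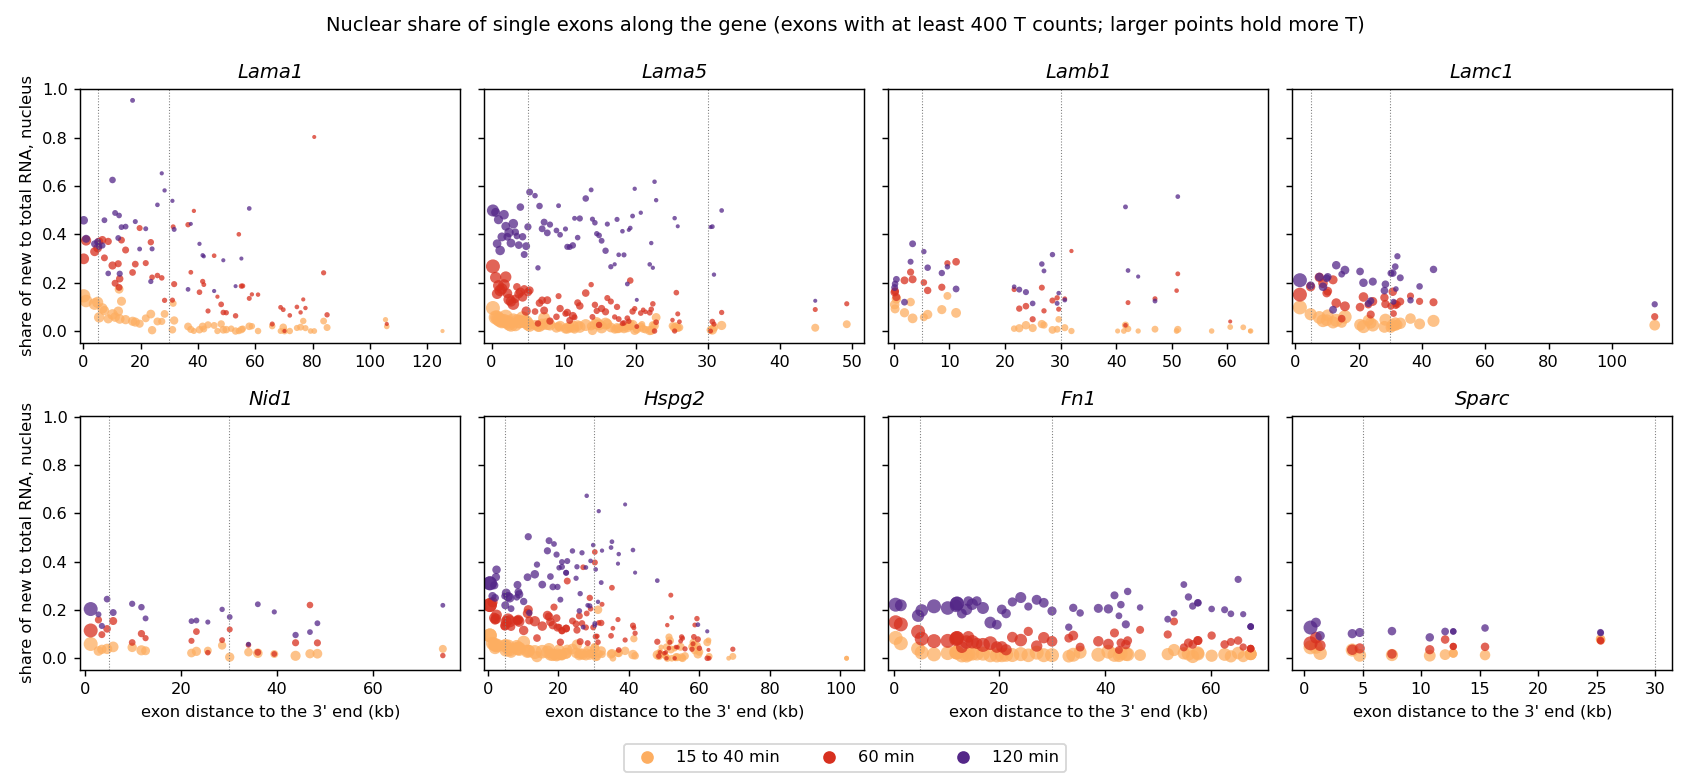
Nuclear share of new to total RNA of single exons against their distance to the 3′ end in kb for 8 genes, with libraries pooled within 15 to 40 min, 60 min and 120 min; dotted lines mark 5 and 30 kb, and larger points hold more T counts. At 15 to 40 min the near exons of Lama1, Lama5, Lamb1 and Lamc1 lie above the far ones, the exons of Sparc between 4.76 and 15.5 kb lie below most of its near exons and its first exon above them, and at 120 min the exons of Fn1 lie close to 0.2 along most of the gene.

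Half-lives were fitted from these shares as a chain of first-order steps from intron to nucleus, cytosol and membrane fraction. The nuclear half-life was shortest for Lama5, at 75.2 min (72 to 79.8 min over fits that leave out 1 replicate), then 101.5 min for Lama1, 114 min for Fn1 and 119 min for Hspg2. It was 165 min for Lamc1, 192 min for Lamb1, 227 min for Col4a2, 243 min for Nid1, 351 min for Col4a1 and longest for Sparc, at 403 min (390 to 466 min). Over these fits the ranges of neighbours in this order overlapped, except those of Lama5 and Lama1, of Hspg2 (up to 130 min) and Lamc1 (from 163 min), and of Nid1 (up to 314 min) and Col4a1 (from 331 min). With a T minimum of 2000 Nid1 had 171 min and Lamc1 218 min, the reverse order, and Sparc had 510 min. With a minimum standard error of 0.02 Sparc had 534 min. The fit also held an elongation rate, by which exons far from the 3′ end are delayed. That rate lay on its bound of 10 kb per min in each fit obtained for Col4a1. In Sparc it was 0.347 kb per min with all replicates and on the bound without replicate 2, 3 or 6. Intron half-lives ran from 2.15 min in Sparc to 31.8 min in Lama5, but that of Sparc moved between 1.72 and 7.50 min when 1 replicate was left out (7.50 without replicate 3, 7.44 without replicate 6 and 6.96 without replicate 2), so its place below Col4a1 (6.14 min, 5.71 to 6.85) is not settled. Those of Lama5 (29.2 to 34.1 min) and Fn1 (29.6 to 32.0 min) overlapped. The cytosolic half-life came to rest on its bound of 0.347 min in 8 members, all but Lama5 (13.2 min) and Lamb1 (36.4 min). The chain cannot give the cytosol a larger share than the nucleus, as was measured in most cultures after 60 min, so the cytosolic values are not interpreted. The membrane values (19.8 min in Sparc to 83.1 min in Hspg2, at the bound in Lamb1) rest on the same chain. All steps were fitted together, so the nuclear and intron half-lives rest on it too, and their order holds only within this chain. The mean cytosolic residual, measured minus fitted share, reached 0.0541 in Lamc1.

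Across the 64 libraries the levels of the members followed each other, with Pearson r of log2 CPM between 0.543 and 0.994 (median 0.944, 45 pairs). The fractions set most of this range, and the libraries share cultures. The genes outside the group whose profile was most like the mean of the members were Ptprf (r = 0.996), Igf2r (0.994), Nid2 (0.993), Glg1 (0.992) and Sorl1 (0.992). Taken singly, Lamc1 was most like Nid2 (0.997), Nid1 like Lamc1 (0.994), Col4a2 like Col4a1 (0.984) and Sparc like Bcap31 (0.997). Col4a1 was most like Dag1 (0.991), Lama1 and Fn1 like Notch2 (0.990 and 0.992), Lamb1 like Ptk7 (0.994), Hspg2 like Celsr2 (0.989) and Lama5 like Adgrl1 (0.984).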

How the data were processed

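Whole cells and 3 subcellular fractions of 4sU-labeled E14TG2a cells were sequenced in 72 libraries, of which 64 were analysed. The 8 libraries of 120 min of replicates 3 and 4 were set aside, as in the source data of the study. The authors aligned reads with STAR 2.7.6 to GRCm38 (mm10) and deposited read counts per gene from HTSeq 0.11.1, one library per file. They also deposited T and T2C counts per exon, gene and gene introns, the conversion rate of each library as a fraction, and the ratio of new to total RNA, which was recomputed here as T2C/T over the conversion rate. Between 30.7% and 48.8% of reads fell on no single gene and were left out. No T2C background was subtracted. Replicates were passaged independently.

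Levels were tested with edgeR 4.0.16 (R 4.3.3; filterByExpr, TMM, quasi-likelihood F test), with DESeq2 1.42.0 as an alternative. Shares were tested with limma 3.58.1 on log2(share + 0.01), for genes whose T counts reached 400 in each library, with labeling condition as a covariate. A fold change on this scale understates the change of low shares. P-values were adjusted by Benjamini-Hochberg over all genes tested, and all tests were two-sided. The members and gene lists were chosen with earlier results of these data known. All 10 members are named, and of each other list at most the 5 genes with the largest membrane against cytosol change. Half-lives were fitted with scipy 1.17.1, a delay of 5 min, rate bounds of 0.001 and 2 per min and a minimum standard error of 0.06. Gene positions and coding sequences come from the GRCm38 annotation, to which 99.6% of gene IDs matched.

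Fractions of one culture share a replicate number and time, and so are paired by design: 48 correlations of replicate differences between fractions ranged from -0.57 to 0.75 (median 0.33). The main level fit held neither a replicate term nor the pairing of fractions. Counts of replicate libraries differed beyond sampling noise. On simulated data with 200 changed genes, the membrane against cytosol test recovered 165 genes changed by a log2 fold change of 1, with 4 false calls among 16093. The share test recovered 189 of 200 genes changed by 1, with 18 false calls among 11646. Of 200 genes changed by 0.5 it recovered 140, with 8 false calls. The whole-cell test of 60 against 20 min recovered fewer, 90 of 200 at a log2 fold change of 1 and 155 at 2, with 6 and 11 false calls among 16701. For both level tests the simulated counts were drawn independently for each library around a common mean per gene. They held no shift shared by a replicate pair and no pairing of fractions, so these rates do not cover such features of the data.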

Additional observations from a re-analysis of the deposited data

Results flagged for a closer look

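Among 160 groups of 4 samples of 1 gene, fraction and time, 6 held a library far from the other 3 by Dixon's criterion, and chance flags about 1 in 20 such groups. The level of Fn1 in whole cells at 20 min was 2625 CPM in replicate 2, against 1008 to 1276 in the others. Nuclear Lama5 at 20 min was 310.9 CPM in replicate 3, against 366 to 369. The whole-cell share of Col4a2 at 60 min was 0.2086 in replicate 6, against 0.0287 to 0.0425. The nuclear share of Hspg2 at 60 min was 0.1251 in replicate 6, against 0.174 to 0.175. The whole-cell share of Lama1 at 20 min was 0.03918 in replicate 3, against 0.0136 to 0.0162. The cytosolic share of Lama5 at 20 min was 0.05055 in replicate 4, against 0.00663 to 0.0127.

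The whole-cell share moved in opposite directions between 60 and 120 min in replicates 5 and 6. In replicate 6 the library labelled 60 min had the higher share in 95.65% of 14744 genes, with medians of 0.389 at 60 min and 0.180 at 120 min, and in 10 of 10 members. In replicate 5 this was the case in 7.29% of 13959 genes and in 0 members. The difference was not tested.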

How the results depend on the processing

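Of 1329 values of members under the alternatives, 1205 counted as unchanged, 65 lost the call, 23 gained one, 7 reversed, and 29 half-lives moved. Unchanged values include those called in neither fit, whatever their sign. They also include half-lives that moved by no more than the standard deviation over fits leaving out a replicate. A value counted as reversed only where its sign changed and it was called in either fit. For membrane or nucleus against cytosol level, all values of the members kept their direction and call. The same held for introns against exons and for far against near exons at 15 to 40 min.

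Without TMM 10695 genes were called between membrane fraction and cytosol. With no filter on low counts 49 genes were called between 60 and 20 min and 53 between 120 and 60 min. Leaving out a replicate moved the comparison of replicates 3 and 4 with 1 and 2 between 342 and 4256 genes and between 0 and 8 members. For the share of membrane against cytosol, 973 genes and 2 members were called within replicates 1 and 2, and 921 and 4 within replicates 3 and 4. For nucleus against cytosol 4314 and 8 were called within replicates 5 and 6, and for nucleus against membrane 5 members within replicates 1 and 2 and 6669 genes within replicates 5 and 6. Values that reversed were nucleus against membrane levels of Hspg2 within replicates 1 and 2 (-0.68) and of Lama1 (0.36) and Fn1 (0.69) within replicates 3 and 4, the membrane against cytosol share of Hspg2 within replicates 1 and 2 (0.091), and the nucleus against cytosol shares of Lama1 (-0.63), Fn1 (-0.95) and Hspg2 (-0.76) within replicates 5 and 6. The cause was not tested.

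With a T minimum of 2000, 5 of 5 tested members were called for introns and 5 of 5 for far exons (1431 genes), and with 15 kb 4380 genes were. For the change of the far against near difference with labeling time, 448 genes and 1 member were called at a pseudocount of 0.05, 584 genes at a T minimum of 2000, 2144 at 15 kb, and 493 to 921 genes and 1 to 5 members without 1 replicate. With the replicate block it called 0 genes and 0 members, and within replicates 3 and 4 also 0. Beside this and Lama1 between nucleus and membrane fraction (-0.49), pairing the libraries by a block changed no call of a member. The median half-life was 188.15 min at a minimum standard error of 0.02, 159.15 min at a T minimum of 2000 (6 members) and 172.05 to 183.6 min without 1 replicate. Depth limits the cytosolic shares of Col4a1 and Col4a2.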
